A study of Homo sapiens with 6 samples.

Results

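The genes described here are the 10 enzymes and core subunits that write, maintain, remove and read out the 2 main repressive marks of chromatin: DNMT1, DNMT3A, DNMT3B, TET1, TET2, TET3 and UHRF1 for DNA methylation, and EZH2, EED and SUZ12 for Polycomb repressive complex 2 (PRC2). They were taken by gene symbol, by a rule that uses no measured value, although earlier results of these data were known when the set was proposed. All 10 were found among the 28395 genes of the count table and had enough counts to be tested. The data are bulk RNA-sequencing of polyadenylated RNA from U251MG, an established human glioblastoma line, in 3 libraries of unedited cells (genotype WT) and 3 libraries of cells in which NUAK2, a kinase of the AMPK-related family, was targeted with CRISPR-Cas9 (genotype NUAK2-CR). No drug or other treatment is named for either group. According to the methods, NUAK2-CR lines were grown from single sorted cells that carried lentiviral vectors with a NUAK2 guide. The labels name neither the clone of each NUAK2-CR library nor a vector control for WT, so the p-values measure the spread between these libraries, which may all come from 1 edited clone.

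DNA methylation is copied after each round of replication by DNMT1, which UHRF1 brings to hemimethylated DNA, whereas DNMT3A and DNMT3B place methyl groups on unmethylated sites. TET1, TET2 and TET3 oxidise methylcytosine and so open the way to its removal. PRC2 consists of the methyltransferase EZH2 with EED and SUZ12, and it methylates histone H3 at lysine 27 on silenced developmental genes. In glioma these pathways are well known for the hypermethylation that follows IDH mutation and for loss of H3 lysine 27 methylation in histone-mutant tumors.

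Counts on genes summed to between 29648445 and 55574081 per library, with the largest total in WT replicate 1. Among pairs of replicates, those with WT replicate 1 also differed most from each other. NUAK2 itself had 1926, 1457 and 1580.1 normalized counts (raw counts divided by relative library size after TMM scaling) in the WT libraries and 799, 961 and 849 in the NUAK2-CR libraries, so its transcript was lower but still present in each edited library. Its log2 fold change was -0.93. The study reported NUAK2 deletion in its edited U251 clones from immunoblot and qPCR. Counts of RNA do not show whether the protein was lost. The 100 tested genes nearest to NUAK2 on chromosome 1 had a median of -0.43, and 24 of them had a lower value than NUAK2. Of 10 glial and glioma markers, 9 were tested, 7 were lower in NUAK2-CR and none was called higher by edgeR (1 at an unadjusted p under 0.05), and OLIG2 had no count in any library. Their summed level was 335651 to 373066 normalized counts in WT and 149117 to 156029 in NUAK2-CR. The markers EPCAM, CDH1, PTPRC and CD3E of other cell types averaged no more than 3.36 normalized counts in either group. Summed over each list, WT and NUAK2-CR libraries had 5532 to 6272 and 6622 to 7208 normalized counts for 5 epithelial markers, 644 to 734 and 201 to 244 for 4 leukocyte markers, and 17.2 to 31.2 and 84.4 to 90.2 for 3 endothelial markers. Of the 3 epithelial markers tested, 1 was called higher and 2 lower, against the direction of their sum. Only 1 leukocyte marker was tested, and it was called lower. All 3 endothelial markers were tested, and 2 were called higher. Of all tested genes, edgeR called 26.3% higher and 28.2% lower. The part of these marker differences in the results on the 10 genes was not tested.

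To determine whether the silencing machinery differed between the genotypes, the 10 genes were read from a fit of edgeR's quasi-likelihood test across all 14873 genes with sufficient counts. A gene was called at an adjusted p-value under 0.05. DNMT3A fell to 43.6% of its WT level, UHRF1 rose to 157%, and the other 8 genes differed by less than 1.5-fold. In bulk libraries, a different share of cells that express a gene and a different amount of its RNA per cell cannot be told apart. In all, 5 of the 10 genes were called higher in NUAK2-CR (UHRF1, TET1, EZH2, TET3 and DNMT1) against 26.3% of all tested genes, and 2 were called lower (DNMT3A and SUZ12) against 28.2%. The values of the 2 genotypes were fully separated for 6 of the 10 genes, which was close to the 61.4% of all tested genes for which this held. Only DNMT3A also exceeded an absolute log2 fold change of 1, as did 13.9% of all tested genes. None of the 10 exceeded the study's threshold of 2. The median log2 fold change was 0.25 over the 10 genes and -0.01 over all tested genes. Calls for DNMT3A, UHRF1 and EZH2 held in all 14 alternative fits at this threshold, including each one that left out a library, whereas those for DNMT1, TET1, TET3 and SUZ12 were lost in at least one. Among these, the fit with a prior count of 2 alters only the fold changes and could not change a call.

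**Figure D1:**
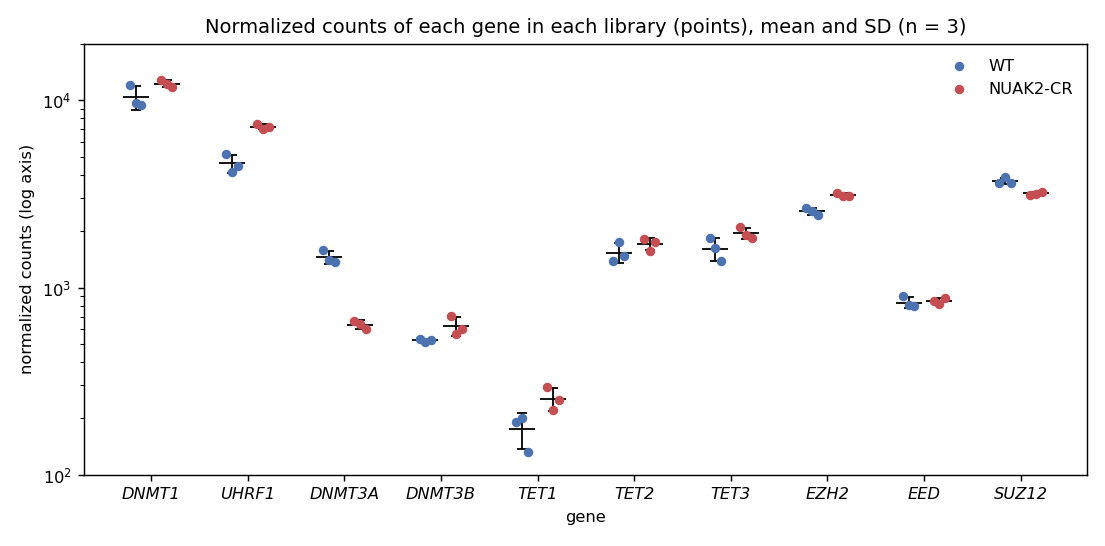
Normalized counts (log axis) of the 10 genes in the 3 WT and 3 NUAK2-CR libraries, with points for libraries and bars for mean and SD. DNMT3A, at 1369 to 1588 in WT and 597 to 667 in NUAK2-CR, shows the widest gap between the groups, and UHRF1 the next.

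UHRF1 reads hemimethylated DNA and ubiquitinates histone H3 to recruit DNMT1. WT replicates 1, 2 and 3 had 5177, 4155 and 4477 normalized counts of UHRF1 (gene 29128, chr19:4903080-4962154, plus strand, GRCh38.p14), and the NUAK2-CR replicates, in the same order, had 7478, 7035 and 7189. Every NUAK2-CR library lay above every WT library. The mean rose from 4603 ± 523 to 7234 ± 225 (SD, n = 3 each), a log2 difference of 0.65 ± 0.08 (SE; edgeR adjusted p = 2.95e-05). Of the 100 tested genes nearest to UHRF1 on chromosome 19, 87 had a lower log2 fold change, and their median was -0.0034.

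DNMT1 (gene 1786, chr19:10133346-10194953, minus strand) is the maintenance methyltransferase that acts with UHRF1. It had normalized counts of 12133, 9628 and 9463 (WT) and of 12824, 12246 and 11812 (NUAK2-CR). WT replicate 1 overlapped the NUAK2-CR libraries, and the other WT libraries lay below all of them. The fitted log2 change was 0.24 ± 0.09 (SE; edgeR adjusted p = 0.0441). This call was lost when WT replicate 2 or 3 or any NUAK2-CR library was left out, with adjusted p-values from 0.0681 to 0.174. Without WT replicate 1 the log2 fold change was 0.37 (edgeR adjusted p = 2.95e-05).

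UHRF1, DNMT1 and EZH2 are known targets of E2F transcription factors, which drive genes of DNA replication. The start regions of the 10 genes, from 250 bases before to 50 bases after each RefSeq transcription start on GRCh38.p14, were therefore searched on both strands for the E2F words TTTCCCGC, TTTCGCGC, TTTGCCGC and TTTGGCGC. Overlapping matches were each counted. At least 1 word was found for 4 of the 10 genes (UHRF1, DNMT1, EZH2 and SUZ12), against 3.99% of all 27305 genes with such a region. Each word contains a CpG dinucleotide. The regions with a match in these 4 genes had 30 to 46 CpG, against a median of 14 over all regions. The 3.99% is therefore not a share among regions of like CpG content. Nor does it allow for the number of start regions per gene, which was 6 for DNMT3A and 3 for UHRF1. Of all 35116 regions, 3.31% had a match. EZH1, a paralog of EZH2, also had a match, and UHRF2, a paralog of UHRF1, had none. In the regions printed for UHRF1 and DNMT1, the word is in capitals. Its first base lies at position -14 in UHRF1 and at position -2 in DNMT1, counted from 0 at the transcription start. A further match in another of the 3 UHRF1 start regions lies at position -160. SUZ12, which had a match, was called lower in NUAK2-CR, and TET1 and TET3, which had none, were called higher. A match describes the sequence and does not show binding. The part of E2F proteins in the differences between the genotypes was not tested.
UHRF1, chr19:4909251-4909550, plus strand: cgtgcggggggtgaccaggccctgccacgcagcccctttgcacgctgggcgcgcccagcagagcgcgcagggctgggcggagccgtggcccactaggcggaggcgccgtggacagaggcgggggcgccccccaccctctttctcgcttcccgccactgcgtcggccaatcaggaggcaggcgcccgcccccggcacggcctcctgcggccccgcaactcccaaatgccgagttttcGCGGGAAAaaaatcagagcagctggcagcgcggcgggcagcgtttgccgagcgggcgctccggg
DNMT1, chr19:10194904-10195203, minus strand: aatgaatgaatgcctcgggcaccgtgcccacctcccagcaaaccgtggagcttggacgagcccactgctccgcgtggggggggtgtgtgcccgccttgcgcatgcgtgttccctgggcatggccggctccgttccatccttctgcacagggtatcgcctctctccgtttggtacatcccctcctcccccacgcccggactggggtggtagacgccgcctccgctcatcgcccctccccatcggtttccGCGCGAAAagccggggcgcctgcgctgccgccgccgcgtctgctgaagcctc

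DNMT3A and DNMT3B, the de novo methyltransferases, did not move together. DNMT3A (gene 1788, chr2:25227874-25342590, minus strand) had normalized counts of 1588, 1403 and 1369 (WT) and of 667, 636 and 597 (NUAK2-CR). Each NUAK2-CR library held less than any WT library, and the spread within either genotype was small beside that gap. The mean fell from 1453 ± 118 to 633 ± 34.8 (SD, n = 3 each), a log2 difference of -1.20 ± 0.09 (SE; edgeR adjusted p = 3.22e-07). Over the alternative fits this value ranged from -1.24 to -1.12. Only 2 of the 100 tested genes nearest to DNMT3A on chromosome 2 had a lower log2 fold change, and the median of those 100 was 0.08.

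DNMT3B (gene 1789, chr20:32762385-32809356, plus strand) had normalized counts of 530, 512 and 527 (WT) and of 705, 563 and 602 (NUAK2-CR). Although the groups did not overlap, the log2 fold change of 0.25 (standard error 0.11) missed the threshold in edgeR (adjusted p = 0.0631). Its 100 nearest tested genes on chromosome 20 had a median of 0.25, equal to the value of DNMT3B itself at this precision. DNMT3L, the catalytically inactive cofactor of both enzymes, had at most 2 counts in any library.

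None of the E2F words was found in the 6 start regions that RefSeq gives for DNMT3A. The region with the most CpG dinucleotides, 46 in 300 bases, is shown. The other 5 DNMT3A regions had 18 to 28, and the 3 UHRF1 regions had 36, 40 and 46. The median over all regions of this length was 14.
DNMT3A, chr2:25341876-25342175, minus strand: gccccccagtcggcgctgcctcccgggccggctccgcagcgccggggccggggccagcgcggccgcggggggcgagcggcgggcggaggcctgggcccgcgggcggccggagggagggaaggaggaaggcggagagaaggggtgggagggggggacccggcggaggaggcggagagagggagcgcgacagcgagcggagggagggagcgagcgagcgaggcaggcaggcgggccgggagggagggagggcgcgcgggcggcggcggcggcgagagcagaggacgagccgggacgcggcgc

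Among the TET dioxygenases, TET1 and TET3 were called higher in NUAK2-CR and TET2 was not called. TET1 (gene 80312, chr10:68560337-68694487, plus strand) had normalized counts of 192, 202 and 132 (WT) and of 293, 222 and 250.3 (NUAK2-CR). All NUAK2-CR values exceeded the WT values, but WT replicate 3 stood below the other WT libraries. The fitted log2 change was 0.54 ± 0.19 (SE; edgeR adjusted p = 0.028). It was 0.37 without WT replicate 3 (adjusted p = 0.107), and the call was also lost without NUAK2-CR replicate 1 (0.0968) or replicate 3 (0.0573).

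TET2 (gene 54790, chr4:105145875-105279803, plus strand) had normalized counts of 1387, 1746 and 1480.2 (WT) and of 1817, 1573 and 1761 (NUAK2-CR), with overlapping groups. Its fitted log2 change of 0.16 ± 0.10 (SE; edgeR adjusted p = 0.178) was not called, and leaving out WT replicate 2 brought it to 0.26 (adjusted p = 0.0312). TET3 (gene 200424, chr2:73983631-74135498, plus strand) had normalized counts of 1840, 1621 and 1383 (WT) and of 2105, 1918 and 1830.1 (NUAK2-CR). Here WT replicate 1 lay just above the lowest NUAK2-CR library. The fitted log2 change of TET3 was 0.27 ± 0.10 (SE; edgeR adjusted p = 0.0385). The call was lost without WT replicate 2 or 3 or NUAK2-CR replicate 1 or 2, with adjusted p-values from 0.0752 to 0.166. The fitted value was 0.17 without WT replicate 3 and 0.38 without WT replicate 1 (edgeR adjusted p = 0.000998 for the latter). TET3 stood at 0.15 less the median of its 100 nearest tested genes. TET3 overlaps BOLA3, a gene on the opposite strand with 31.1% as many counts. The libraries were made with a stranded kit, but featureCounts is described only as run at its defaults, which ignore strand, so the split of reads between TET3 and BOLA3 is uncertain.

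**Figure D2:**
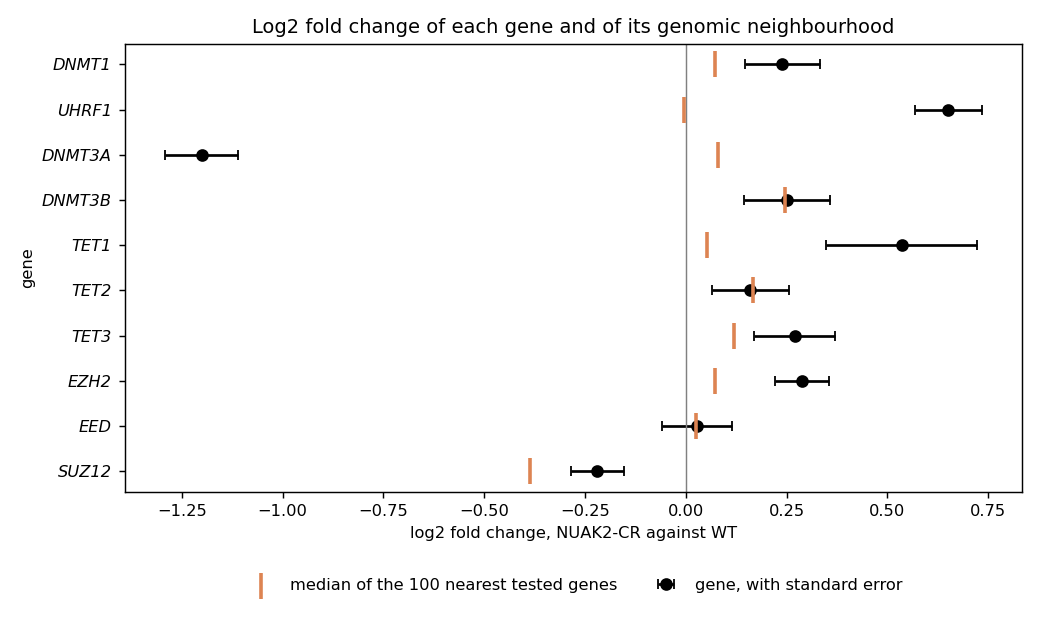
Log2 fold change of NUAK2-CR against WT for the 10 genes (points, with bars for the standard error) and the median of the 100 nearest tested genes of each (vertical marks). SUZ12 lies at -0.22 in a neighbourhood at -0.39, and DNMT3B and TET2 lie on the medians of their neighbourhoods.

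Among the PRC2 core genes, EZH2 and SUZ12 went in opposite directions and EED did not differ beyond its error. EZH2 (gene 2146, chr7:148807383-148884291, minus strand), the catalytic subunit, had normalized counts of 2650, 2580 and 2436 (WT) and of 3206, 3079 and 3078 (NUAK2-CR). The groups did not overlap. The mean rose from 2555 ± 109 to 3121 ± 73.7 (SD, n = 3 each), a log2 difference of 0.29 ± 0.07 (SE; edgeR adjusted p = 0.0027). It stayed between 0.25 and 0.32 in the alternative fits. Relative to the median of its 100 nearest tested genes on chromosome 7, the difference was 0.22. In the EZH2 start region with an E2F word, shown with the word in capitals, the match begins at position 1.
EZH2, chr7:148884242-148884541, minus strand: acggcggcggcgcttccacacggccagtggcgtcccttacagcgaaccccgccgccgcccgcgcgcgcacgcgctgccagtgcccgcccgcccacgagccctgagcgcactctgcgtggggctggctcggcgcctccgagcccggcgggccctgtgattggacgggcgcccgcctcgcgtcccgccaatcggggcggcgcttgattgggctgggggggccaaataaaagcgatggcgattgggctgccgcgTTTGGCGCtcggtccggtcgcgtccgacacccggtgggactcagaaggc

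SUZ12 (gene 23512, chr17:31937007-32001038, plus strand), the scaffold subunit of PRC2, had normalized counts of 3604, 3882 and 3632 (WT) and of 3140.2, 3162 and 3248 (NUAK2-CR). All NUAK2-CR libraries were below all WT libraries, with a log2 difference of -0.22 ± 0.06 (SE; edgeR adjusted p = 0.0126). The 100 nearest tested genes on chromosome 17 had a median of -0.39, and 64 of them had a lower value than SUZ12. Less that median, SUZ12 stood at 0.17, so its direction depended on whether the level of its neighbourhood was taken into account. The call was also lost without NUAK2-CR replicate 1 (adjusted p = 0.0737) or replicate 2 (0.0516). SUZ12P1, a pseudogene copy that could share reads with SUZ12, had raw counts of 445, 367 and 306 (WT) and of 182, 184 and 186 (NUAK2-CR). These are not scaled for library totals, which were larger in every WT library than in any NUAK2-CR library, so they overstate the gap between the genotypes.

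EED (gene 8726, chr11:86244753-86287615, plus strand), which binds trimethylated lysine 27 of H3, had normalized counts of 896, 805 and 793 (WT) and of 852, 814 and 879 (NUAK2-CR). The groups overlapped and the fitted log2 change was 0.03 ± 0.09 (SE; edgeR adjusted p = 0.812).

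Expressed as RPKM, the counts per kilobase of canonical transcript scaled to library depth, the 10 genes spanned a wide range of levels. In WT the order ran from DNMT1 (52.6 ± 7.56), UHRF1 (31.5 ± 3.57), EZH2 (25.7 ± 1.10), SUZ12 (22.0 ± 0.91) and EED (10.6 ± 0.72) down to TET2 (4.28 ± 0.52), DNMT3A (4.11 ± 0.33), TET3 (3.57 ± 0.50), DNMT3B (3.22 ± 0.06) and TET1 (0.49 ± 0.10; all SD, n = 3). In this order, TET2 and DNMT3A, and likewise TET3 and DNMT3B, differed by less than the larger of their SDs, while all other neighbours differed by more. In NUAK2-CR, DNMT3A dropped to 1.79 ± 0.10 (SD, n = 3) on this scale, below DNMT3B at 3.83 ± 0.45 (SD, n = 3), and UHRF1 reached 49.5 ± 1.54 (SD, n = 3). The median tested gene stood at 6.99, so the maintenance and PRC2 genes were above it and the de novo and TET genes below it in both genotypes.

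To compare related enzymes without any library scaling, the log2 ratio of their counts was taken within each library. The ratio of DNMT3B to DNMT3A was -1.58, -1.45 and -1.38 in WT and 0.08, -0.17 and 0.01 in NUAK2-CR. The ratio was thus below 0 in each WT library and close to 0 in each NUAK2-CR library; it takes no account of transcript length. The difference between the genotypes was 1.44, with p = 0.1 in a two-sided exact permutation test (adjusted p = 0.15 over 6 ratios). With 3 libraries against 3, 0.1 is the smallest p that this test can give, so no ratio could pass 0.05.

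EZH2 to EZH1, its paralog with weaker enzymatic activity, had log2 ratios of 0.91, 0.98 and 1.08 in WT and 1.31, 1.46 and 1.38 in NUAK2-CR (exact permutation p = 0.1). The ratio of UHRF1 to its paralog UHRF2 was lower in NUAK2-CR, at 1.19, 1.11 and 1.18 against 1.57, 1.28 and 1.37, although both genes rose. TET1 to TET2 went from -3.15 ± 0.32 to -2.76 ± 0.11 (SD, n = 3 each). The groups did not overlap for these 4 ratios, and they did for TET3 to TET2 and for the H3 lysine 27 demethylases KDM6B to KDM6A, which differed by 0.12 and -0.03.

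**Figure D3:**
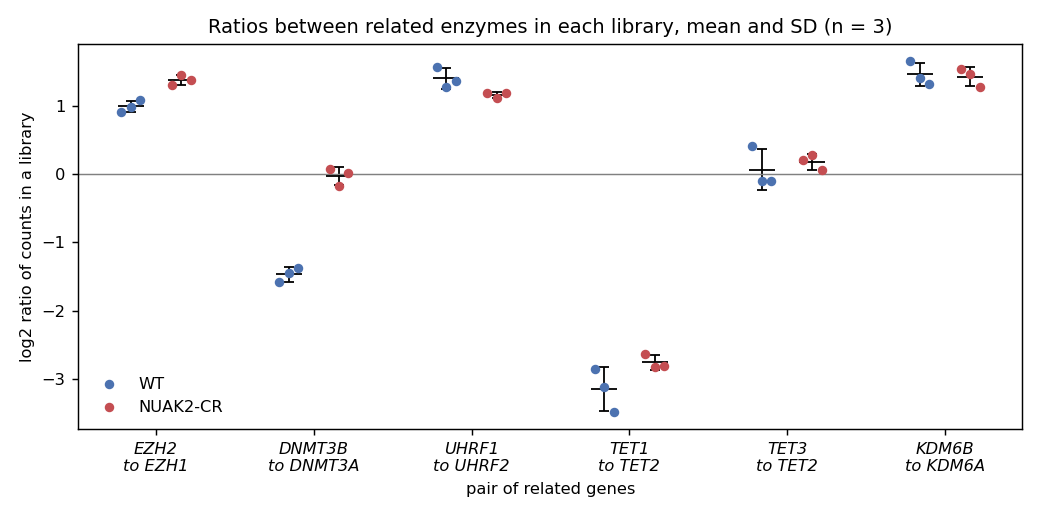
Log2 ratio of the counts of 6 pairs of related genes within each library (points), with bars for mean and SD (n = 3). The ratio of DNMT3B to DNMT3A went from -1.47 in WT to -0.03 in NUAK2-CR, and the other pairs differed by less than 0.4.

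Partners of the DNA methylation enzymes were taken from a list of 27 genes, of which 24 were tested. They were evenly divided, with 8 called higher, 8 called lower and a median log2 fold change of 0.03. Over all tested genes, 26.3% were called higher and 28.2% lower. The 3 largest increases among genes with at least 100 normalized counts were in CDCA7, UHRF2 and HELLS. HELLS is a chromatin remodeler that CDCA7 recruits to heterochromatin and that maintenance of DNA methylation requires, and both are mutated, like DNMT3B, in the ICF immunodeficiency syndrome. CDCA7 had normalized counts of 842, 743 and 833 (WT) and of 2545, 2590.5 and 2584 (NUAK2-CR). Its fitted log2 change was 1.67 ± 0.08 (SE; edgeR adjusted p = 4.16e-09), larger than that of any of the 10 enzymes. HELLS rose from 884 ± 42.5 to 1528 ± 100.3 normalized counts (SD, n = 3 each), a log2 difference of 0.79 (edgeR adjusted p = 6.05e-06). UHRF2 rose from 1730 ± 14.7 to 3234 ± 59.8 (SD, n = 3 each), or by 0.90 (adjusted p = 1.85e-07).

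Under the same limit on counts, the 3 largest decreases were in DMAP1, a partner of DNMT1, in ZBTB33, which encodes the methyl-CpG binding protein Kaiso, and in TDG, the glycosylase that excises oxidised methylcytosine after TET action. DMAP1 fell from 2069 ± 227 to 1178 ± 31.8 normalized counts (SD, n = 3 each), a log2 difference of -0.81 (edgeR adjusted p = 7.25e-06). The values for ZBTB33 and TDG were -0.64 and -0.55. Named after their values were seen, GADD45G averaged fewer than 100 normalized counts in each group and was called at -1.99, while ZFP57 and DPPA3 had no count in any library.

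PRC2 accessory subunits and H3 lysine 27 demethylases formed a list of 14 genes, 13 of them tested. None was called higher by edgeR, at an adjusted or an unadjusted p under 0.05, or by DESeq2, and 5 were called lower, where 26.3% and 28.2% of all tested genes were called higher and lower. Their median log2 fold change was -0.11. RBBP7 and RBBP4 are histone chaperones that PRC2 shares with other complexes. RBBP7 fell from 9327 ± 242 to 6472 ± 59.8 normalized counts (SD, n = 3 each), a log2 difference of -0.53 (edgeR adjusted p = 1.54e-05). PHF19 and MTF2, Polycomb-like subunits that guide PRC2 to CpG islands, had -0.47 and -0.43. JARID2, a substoichiometric cofactor, and RBBP4 were the other two, at -0.27 and -0.22. They were named after their values were seen. The demethylases KDM6A and KDM6B (-0.06 and -0.10) and EZH1 (-0.11) were not called, and EZHIP, an inhibitor of PRC2, had no count in any library.

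**Figure D4:**
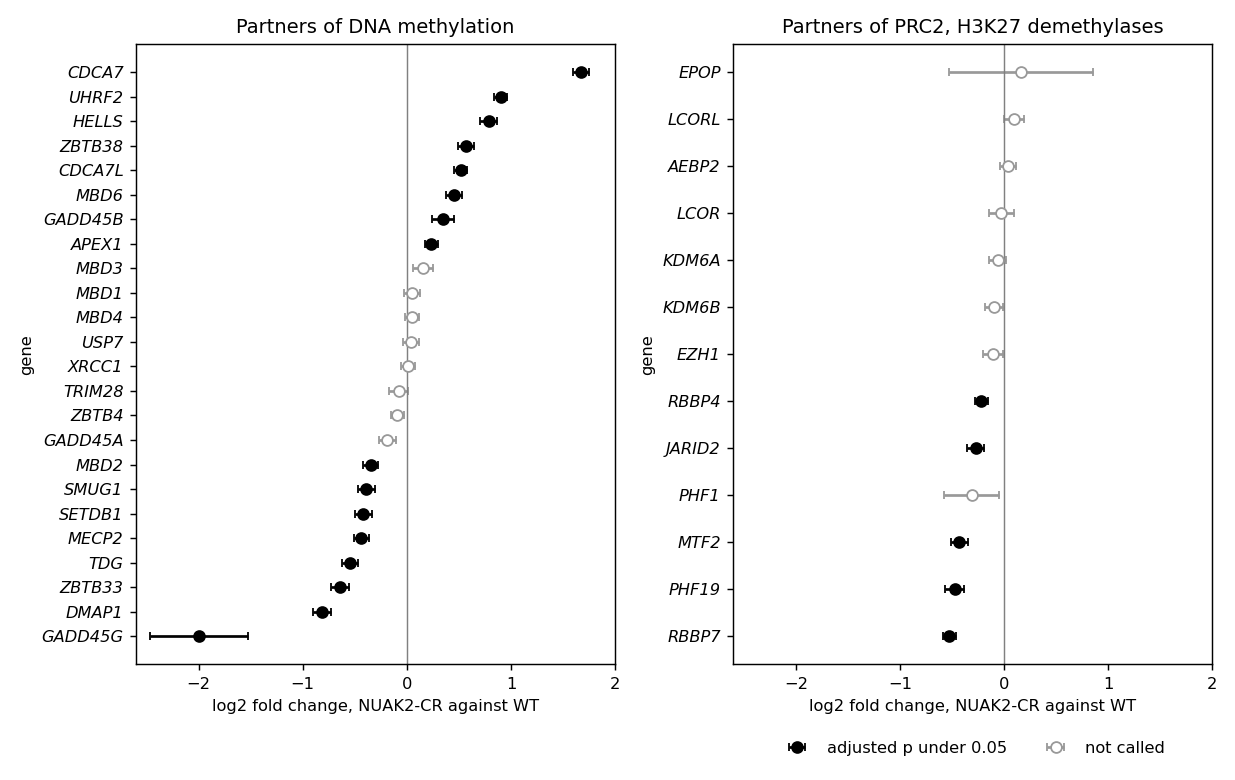
Log2 fold change of NUAK2-CR against WT, with bars for the standard error, for 24 tested partners of DNA methylation and 13 tested PRC2 partners and demethylases. Filled points passed an adjusted p of 0.05; CDCA7, UHRF2 and HELLS lead on the left, and all 5 filled points on the right lie below 0.

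PRC1, which binds the PRC2 mark and ubiquitinates histone H2A, was covered by 28 genes with its deubiquitinases. Of the 27 tested, 8 were called higher and 3 lower, where 26.3% and 28.2% of all tested genes were called higher and lower. Their median was 0.12. PCGF5, a subunit of variant PRC1, rose from 2145 ± 166 to 3984 ± 213 normalized counts (SD, n = 3 each), a log2 difference of 0.89 (edgeR adjusted p = 1.07e-06). KDM2B and BCORL1, also of variant PRC1, had 0.57 and 0.52. Subunits of canonical PRC1 were called in both directions. CBX8 and SCML2 were lower, at -0.66 and -0.56, and CBX6, PHC1 and PHC2, named after their values were seen, were higher, at 0.41, 0.36 and 0.19. The variant subunits PCGF1, PCGF6, RYBP and BCOR were not called, and the call for SCML2 was lost in 1 of 14 alternative fits.

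Enzymes that supply the methyl donor or the TET cofactor numbered 23, of which 21 were tested. Against 26.3% and 28.2% of all tested genes, 7 were called higher and 7 lower, with a median of 0.02. MTHFD2, a mitochondrial folate enzyme, rose from 2926 ± 149 to 6454 ± 766 normalized counts (SD, n = 3 each), a log2 difference of 1.14 (edgeR adjusted p = 3.67e-07). NNMT, which consumes S-adenosylmethionine, had 0.64 and D2HGDH, which clears D-2-hydroxyglutarate, had 0.57. IDH3A, a subunit of the mitochondrial enzyme that makes 2-oxoglutarate, fell from 4851 ± 124 to 2581 ± 129 (SD, n = 3 each), or by 0.91 on the log2 scale (adjusted p = 2.82e-07). SHMT1 and PEMT had -0.87 and -0.77.

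Because UHRF1, DNMT1 and EZH2 are expressed in cycling cells, they were set beside 24 genes of replication and mitosis. These genes moved in both directions: 14 were called higher and 7 lower, against 26.3% and 28.2% of all tested genes. Their median was 0.35. CCNE2, MCM6 and E2F1 had the largest increases, at 1.14, 0.95 and 0.93, and CCNB1, TOP2A and AURKB the largest decreases, at -1.51, -0.97 and -0.95. E2F1 rose from 2216 ± 201 to 4216 ± 298 normalized counts (SD, n = 3 each) (edgeR adjusted p = 1.5e-06). Named after their values were seen, PCNA and the 6 subunits of the MCM helicase were all called higher, whereas BUB1, CCNA2, CDK1 and MKI67 were called lower. CCNE1, CDC6 and TYMS, which also act in DNA replication or its onset and were named in the same way, were not called. Their values were -0.34, -0.09 and 0.12. The mean log2 level of the 24 genes went from 11.90 ± 0.09 to 12.05 ± 0.03 (SD, n = 3 each). It pools genes called higher with genes called lower. UHRF1 itself, at 0.65, lay within the range of those called higher. Relative to that mean in the same library, UHRF1 was at 0.34, 0.20 and 0.25 in WT and at 0.84, 0.70 and 0.78 in NUAK2-CR, a difference of 0.51. The same differences were 0.14 for EZH2 and 0.10 for DNMT1, and on this relative scale the groups overlapped for DNMT1 and were separated by less than 0.01 for EZH2.

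**Figure D5:**
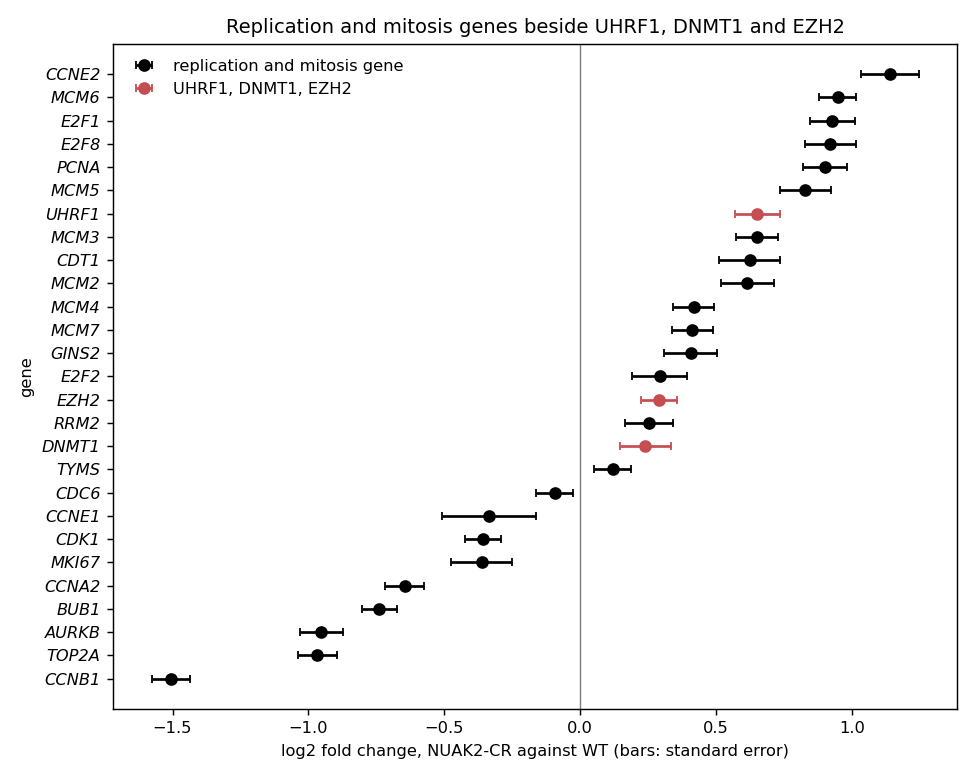
Log2 fold change of NUAK2-CR against WT, with bars for the standard error, for 24 replication and mitosis genes (black) and for UHRF1, DNMT1 and EZH2 (red). UHRF1, at 0.65, lies among the replication genes called higher, and EZH2 and DNMT1, at 0.29 and 0.24, lie near the lower end of the positive values. The mitotic genes CCNB1, TOP2A, AURKB and BUB1 lie at the negative end.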

How the data were processed

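RNA from 3 WT and 3 NUAK2-CR libraries was measured, and the sample labels gave the group and replicate number of each. The authors used Trimmomatic for trimming, HISAT2 for alignment to hg38 and featureCounts for raw counts per gene, which they deposited, each at its defaults; versions, annotation and an explicit strand setting are not given in the sources used here. Of 28395 NCBI gene identifiers, 27745 were matched to RefSeq symbols. The genotypes were compared with edgeR 4.0.16 under R 4.3.3 (filterByExpr, TMM, glmQLFit, glmQLFTest, prior count 0.125) and Benjamini-Hochberg adjustment over 14873 genes. The standard error is the absolute log2 fold change divided by the square root of F. The script was tested on simulated counts. Lengths are those of GENCODE canonical transcripts, and start regions are RefSeq's on GRCh38.p14. Neighbourhoods are the 100 nearest tested genes on the chromosome. Ratios were tested by exact permutation. The alternatives were DESeq2 1.42.0, RLE and library-size scaling, no filter, at least 10 counts in every library, each library left out, a replicate block, a prior count of 2, thinning to the smallest library and thresholds of 1 and 2 on the log2 scale.

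The 10 genes and all lists were chosen with earlier results of these data known. Beyond the 10, named genes are NUAK2, partners in the ratios, overlapping genes and, of each list, the 3 highest and 3 lowest called genes whose higher group averages 100 or more normalized counts; some of these are not reported here. A floor of 3 counts covers counting error only.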

Additional observations from a re-analysis of the deposited data

How the results depend on the processing

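DNMT3A, UHRF1 and EZH2 kept their direction and call in all 14 alternative fits, and 40 of the 44 other named genes that were refitted did so in every fit that could include them (13 for FOXL2). The fit with a prior count of 2 had the same p-values as the main fit, so it could not change a call. Genes named after their values were seen were not refitted. Leaving out each library in turn gave 2 to 5 of the 10 genes called higher and 1 to 2 called lower, 3424 to 4182 of all tested genes higher and 3716 to 4299 lower. Without WT replicate 3 or NUAK2-CR replicate 1, 2 genes were called higher, and without NUAK2-CR replicate 3, 3 were. A fit without WT replicate 3 also put EED at -0.0072, the lowest of its values; the highest was 0.093, without WT replicate 1. Fewer libraries enter these fits. DNMT3B was called when libraries were thinned to the smallest total (0.29, adjusted p = 0.0388 from edgeR) or without NUAK2-CR replicate 2 (0.32, adjusted p = 0.0461). Requiring an absolute log2 fold change over 1 left 0 of the 10 genes higher and 1 lower, with 1027 and 1035 of all tested genes; over 2 it left 0 and 0, with 281 and 421. Less the median of its neighbours, SUZ12 was at 0.17. With the replicate number as a replicate block, 3972 genes were called higher and 4195 lower, and the same numbers of the 10 genes as without it. Deviations of libraries of the same number had correlations of 0.04, -0.04 and 0.05, and not every library correlated best with its own number. The labels do not say whether libraries of the same number were prepared together, and so few libraries cannot decide it. The 6 ratios moved by less than the spread between replicates under every alternative run. Leaving out a library from a group of 3 cannot move its mean by more than that spread. The replicate block gives the same difference by construction, so those runs could not have come out otherwise.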

Other observations

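Genes whose silencing is known to involve DNA methylation or Polycomb were read from 3 further lists. Of 22 germline genes, 7 had no count in any library and only 4 could be tested. MOV10L1, a helicase of the piRNA pathway, rose from 44.7 ± 9.61 to 112 ± 23.3 normalized counts (SD, n = 3 each), a log2 difference of 1.30 (edgeR adjusted p = 0.00107). TUBA3C, named after its value was seen, was called lower, at -1.85, and could share reads with its near-identical copy TUBA3D. Among 25 imprinted genes, 15 were tested, with a median of 0.10. Of these, 4 were called higher and 3 lower, against 26.3% and 28.2% of all tested genes. MEST had 0.90, SGCE 0.30, PLAGL1 0.29 and GNAS, named after its value was seen, 0.25. DIRAS3, a maternally imprinted RAS-related gene, fell from 4752 ± 400.0 to 1304 ± 95.7 normalized counts (SD, n = 3 each), a log2 difference of -1.87 (edgeR adjusted p = 3.84e-09). INPP5F and ZNF331 had -0.96 and -0.34. The calls for SGCE, PLAGL1 and ZNF331 were lost in 2, 3 and 2 of 14 alternative fits.

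Developmental transcription factors numbered 99, and 57 were tested. There were 23 called higher and 18 called lower, against 26.3% and 28.2% of all tested genes. Their median of -0.08 did not move when 4 genes with a group at the floor of 3 counts were set to their bounds. Past an absolute log2 fold change of 2, the study's threshold, 1 gene (IRX6) was higher and 6 were lower. The same threshold left 281 and 421 of all 14873 tested genes. Of the 6 lower genes, WT1, DLX4, DLX3 and SIX3, named after their values were seen, had few counts. They averaged 48.8, 23.5, 18.3 and 15.3 normalized counts in WT. IRX6 and EMX2 were called higher, at 2.78 and 1.89. ALX4 fell from 3181 ± 182 to 591 ± 54.0 (SD, n = 3 each), a log2 difference of -2.43 (edgeR adjusted p = 6.67e-10), and MSX2 had -1.55. FOXL2 had raw counts of 168, 105 and 109 (WT) and of 8, 0 and 2 (NUAK2-CR). Whether any of these genes changed its DNA methylation or histone marks was not tested.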
